A study of Rattus norvegicus with 48 samples.

Results

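The L kidneys after 7 days of indole-3-carbinol were set against the L kidneys of rats given carrier, with 4 arrays in each group. These 8 arrays were taken by their titles from a series of 48, which covers 4 rat strains at 3 times. The tested kidneys came from male L rats gavaged with 100 mg/kg/day of indole-3-carbinol for 7 days, and the others from male L rats gavaged with vegetable oil, called day 0 as in the titles. The labels give 12 weeks as the age in all groups and name the strains only by the letters L, F, LF and FL. The design text calls the treated days induction without saying what was induced, and no allele or transgene is named. The treatment protocol had 8 rats in a group, the design text counts 4 biological replicates, and the labels do not say whether RNA of several rats was pooled for an array. How long the carrier was given is not stated either. Other groups used here are the L kidneys after 10 days of the compound, and the F, LF and FL kidneys at days 7 and 0, treated in the same way.

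Indole-3-carbinol is a compound of cabbage and related vegetables. Its acid products bind the aryl hydrocarbon receptor, a transcription factor that switches on Cyp1a1, an enzyme of foreign compound metabolism. The kidney is made largely of tubules: the proximal tubule reabsorbs most of the filtrate, the loop of Henle and distal tubule handle salt and calcium, and the collecting duct sets the final water and urea content of urine. A damaged proximal tubule makes Havcr1, an injured kidney makes Lcn2, and both are used as markers of renal injury.

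Each array gave a log2 signal for 8797 probe sets. The array medians lay between 5.80 and 5.94 in L day 7 and between 5.76 and 6.03 in L day 0. Correlations between arrays lay between 0.989 and 0.991 within L day 7, between 0.987 and 0.991 within L day 0, and between 0.987 and 0.991 across the groups. The array spread, which is the SD over probe sets of an array, averaged 2.43 ± 0.041 in L day 7 and 2.46 ± 0.071 in L day 0 (SD, n = 4 each). That difference of -0.029 had an exact permutation p of 0.571, two-sided, where 0.0286 is the smallest p this design allows. Replicate 4 of L day 0 had the lowest spread of these 8 arrays, 2.36, so the main counts, list medians and calls that move with it are also given without it. Kidney markers were bright in all 8 arrays: Umod, the protein of the loop of Henle, lay between 12.65 and 12.92, and Slc34a1, the phosphate carrier of the proximal tubule, between 11.98 and 12.18. Alb, a liver marker, lay between 2.77 and 3.15, and Star, an adrenal marker, between 4.06 and 4.27.

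After 7 days, 1 probe set passed the threshold in L kidneys, and it was lower. The threshold was an adjusted p of 0.05 from limma, a linear model fitted to all 48 arrays, with Benjamini-Hochberg adjustment over the 8797 probe sets. None was higher (0%) and 1 was lower (0.0114%). At an unadjusted p under 0.05 there were 145 higher (1.65%) and 208 lower (2.36%), together 4.01% of the probe sets tested. These counts depended on 1 array and on scaling: they were 226 higher and 534 lower without replicate 4 of L day 0, and 271 higher and 178 lower with the median of each array subtracted. All 4 day 7 arrays lay above all 4 day 0 arrays for 80 probe sets (0.909%), and below them for 91 (1.03%). The median difference over all probe sets was -0.025, with 42.7% above 0. It was -0.07 without replicate 4 of L day 0 and 0.03 with array medians subtracted. Each difference below is log2, L day 7 minus L day 0 unless another pair is named, with its standard error from that fit and n = 4 arrays in each group. The limma p-values measure the spread between arrays within groups, pooled over all 48 arrays unless a smaller set is named.

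**Figure D1:**
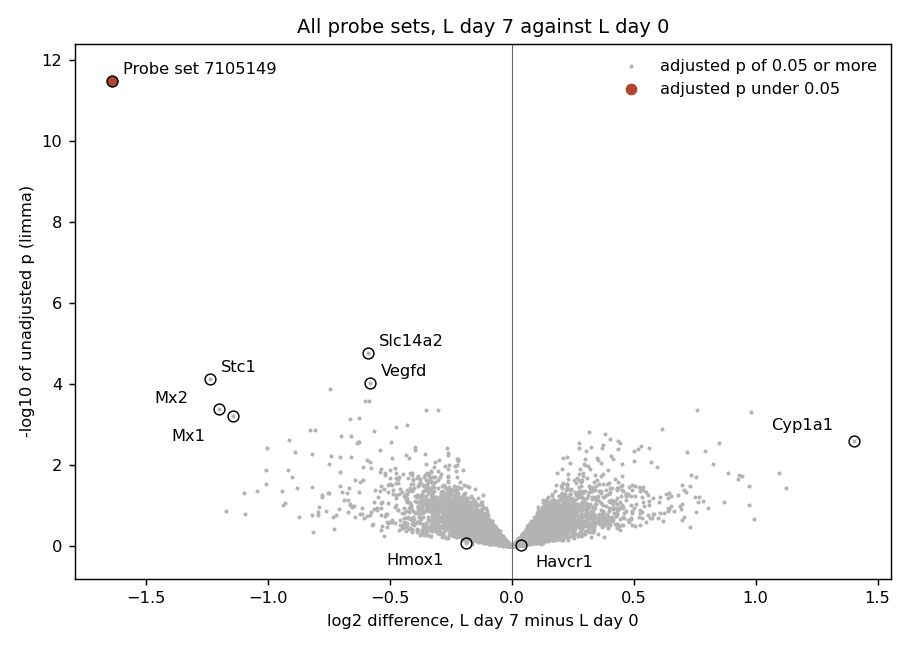
Each point is 1 of 8797 probe sets, with the log2 difference of L day 7 minus L day 0 on the horizontal axis and -log10 of the unadjusted limma p on the vertical axis. The only probe set with an adjusted p under 0.05 is 7105149 at -1.64, while Cyp1a1 at 1.41 stands furthest to the right and Havcr1 and Hmox1 lie near 0 on the vertical axis.

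Probe set 7105149, which carries no gene symbol in the annotation, fell by 1.64 ± 0.17 (adjusted p = 2.93e-08), a level 3.11 times lower. Its signals were 5.70, 5.20, 5.59 and 5.27 in L day 7, against 7.11, 7.21, 7.20 and 6.79 in L day 0. The groups lay far apart, with a gap wider than the range within either. Within each replicate number, which also marks a prefix of the array names, the differences were -1.41, -2.01, -1.61 and -1.52. The L day 10 arrays, at 5.70, 5.01, 5.44 and 4.84, covered much the same range as those of day 7. This probe set also fell in the other strains, by 1.96 in F, 2.00 in LF and 2.10 in FL.

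Among the 7603 probe sets with 1 gene symbol none passed, and the smallest adjusted p was 0.0736 for Slc14a2. Slc14a2 encodes the urea carrier of the inner medullary collecting duct. Its signals were 5.77, 5.99, 5.97 and 5.90 in L day 7, against 6.54, 6.43, 6.74 and 6.28 in L day 0. All day 7 arrays lay below all day 0 arrays, and the difference was -0.59 ± 0.12 (95% interval -0.83 to -0.35). Within the replicate numbers it was -0.77, -0.44, -0.77 and -0.38. With the replicate number as a block the adjusted p was 0.0484, and without replicate 4 of L day 0 it was 0.0320. With only the L day 7 and L day 0 arrays it was 0.407, and over the 16 alternatives it reached 0.832. This gene passed in 6 of the 16, so its call depended on the setting. In L day 10 it measured 5.98, 6.05, 5.78 and 5.97, again below every day 0 array.

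Stc1, a hormone made along the nephron that acts on calcium and phosphate handling, had the lowest difference of any named gene, -1.24 ± 0.28 (adjusted p = 0.207). Its signals were 5.92, 5.25, 6.16 and 5.64 in L day 7, against 7.28, 6.80, 7.28 and 6.56 in L day 0, and did not overlap. Its L day 10 arrays lay between 5.52 and 5.97. Vegfd, a growth factor of lymphatic vessels, measured 6.28, 5.81, 6.01 and 6.02 in L day 7, against 6.62, 6.75, 6.79 and 6.28 in L day 0. The groups met at 6.28, and the difference was -0.58 ± 0.13 (adjusted p = 0.207, and under the threshold without replicate 4 of L day 0). Unlike Stc1, Vegfd lay between 6.35 and 6.52 in L day 10, above all day 7 arrays.

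The other named genes of smallest p on the lower side were Ptprq, Cxcl12, Mx2, Ndrg4, Cpz, Mx1 and Igsf10, with differences between -1.20 and -0.30 and none past the threshold. Cxcl12, the chemokine that holds blood progenitors and lymphocytes in tissues, measured 7.63, 7.53, 7.76 and 7.70 in L day 7, against 8.12, 8.31, 8.56 and 8.03 in L day 0 (-0.60 ± 0.15, adjusted p = 0.323). All of its day 7 arrays lay below its day 0 arrays. Ptprq, a membrane phosphatase found in podocytes, differed by -0.58 ± 0.15 (adjusted p = 0.323) and lies among the dimmest 25% of probe sets. It was the lowest of 11 measured podocyte genes, of which 1 was positive, Wt1 at 0.11. The median of that list was -0.12 (-0.19 without replicate 4 of L day 0). Cpz, a secreted carboxypeptidase, differed by -0.30 ± 0.079 and Ndrg4, a relative of Ndrg1, by -0.35 ± 0.092, both with an adjusted p of 0.349 and no overlap.

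On the higher side the 10 named genes of smallest p were Vom1r70, Hrob, Pitx1, Chrnb3, Slc10a1, Cyp1a1, Or5ac19, Or51q1, Slco1c1 and Rhd, none past the threshold. Of these, Vom1r70, Chrnb3, Or5ac19, Or51q1 and Slco1c1 lie among the dimmest 25% of all probe sets. They include a pheromone receptor (Vom1r70), odorant receptors (Or5ac19, Or51q1) and a subunit of the acetylcholine receptor (Chrnb3). Hrob, a factor of DNA repair, measured 4.81, 4.53, 4.64 and 4.65 in L day 7, against 4.28, 4.25, 4.33 and 4.50 in L day 0 (0.32 ± 0.093, adjusted p = 0.585). Slc10a1, a bile acid carrier known from the liver, measured 4.62, 4.35, 4.29 and 4.42 in L day 7, against 4.07, 4.00, 4.01 and 3.86 in L day 0 (0.43 ± 0.13, adjusted p = 0.681). Both were without overlap between the groups.

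**Figure D2:**
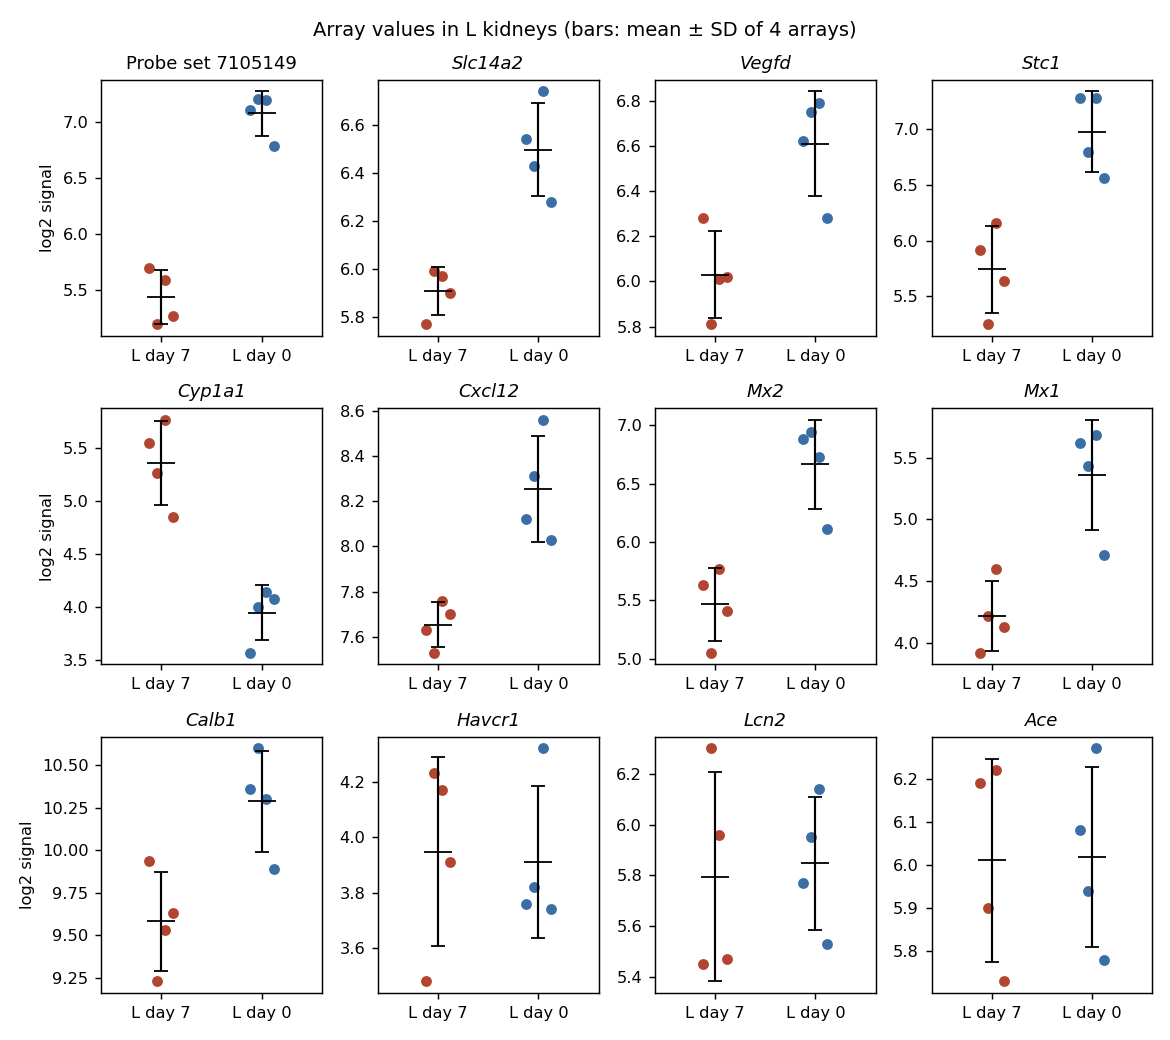
Log2 signals of 12 probe sets are shown for each of the 4 L day 7 arrays (left in each panel) and the 4 L day 0 arrays (right), with bars for the mean and SD and a separate vertical scale in each panel. Probe set 7105149 sits between 5.20 and 5.70 in L day 7 and between 6.79 and 7.21 in L day 0, Cyp1a1 lies higher in every day 7 array, and Havcr1, Lcn2 and Ace overlap between the groups.

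Cyp1a1, the gene by which activity of the aryl hydrocarbon receptor is usually read, had the largest difference of any probe set on the higher side. Its signals were 5.54, 5.26, 5.76 and 4.85 in L day 7, against 3.57, 4.00, 4.14 and 4.08 in L day 0. All day 7 arrays lay above all day 0 arrays, and the mean level was 2.65 times higher. The difference of 1.41 ± 0.43 (95% interval 0.53 to 2.28) had an adjusted p of 0.681. The standard error comes from all 48 arrays and is widened by arrays of other groups: in F day 7 the signals ranged from 5.62 to 8.88. With the 8 L arrays alone the standard error was 0.20, the interval 0.96 to 1.85 and the adjusted p 0.101. The L day 10 arrays of 5.30, 5.38, 5.92 and 5.0 again lay above every day 0 array. In F the day 7 difference was 2.73 ± 0.43 (adjusted p = 0.000856), and the L response minus the F response was -1.32 ± 0.61 (adjusted p = 0.998).

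Of 8 measured genes of the aryl hydrocarbon receptor list none passed the test, 5 differences were positive, and the median was 0.17 (0.11 without replicate 4 of L day 0) beside -0.025 over all probe sets. Cyp1a2, the neighbouring enzyme of the same family, measured 4.50, 4.69, 4.73 and 4.54 in L day 7, against 4.44, 4.28, 4.35 and 4.24 in L day 0. These did not overlap, and the difference was 0.29 ± 0.17 (adjusted p = 0.994). Aldh3a1, an aldehyde dehydrogenase induced through the same receptor, differed by 0.22 ± 0.11 and Nqo1, a quinone reductase shared with the Nrf2 response, by 0.24 ± 0.24. Ahr itself, the receptor, differed by -0.22 ± 0.15. Of the other members, Cyp1b1 differed by -0.165 ± 0.148, Arnt by -0.115 ± 0.11 and Ahrr by 0.11 ± 0.098. In the list of Nrf2 targets and glutathione enzymes, which defend against electrophiles, none of 15 passed and all differences lay between -0.21 and 0.17.

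The interferon response list had the lowest median of the 27 lists, with no member past the threshold. Interferons switch on genes that block virus replication, among them the Mx GTPases and the oligoadenylate synthetases of the Oas family. Of 22 measured members 20 had negative differences, while 42.7% of all probe sets were above 0. On the lower side 13 had an unadjusted p under 0.05, beside 2.36% of all probe sets, and 8 had all day 7 arrays below all day 0 arrays, beside 1.03%. The median was -0.43, beside -0.025 over all probe sets. Without replicate 4 of L day 0 these medians were -0.62 and -0.07. Averaged over the list, the arrays lay between 5.18 and 5.54 in L day 7 and between 5.52 and 6.06 in L day 0, so these ranges overlapped slightly. The list was put together with earlier results of these data known, and its direction is therefore a description.

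Mx2 measured 5.63, 5.05, 5.77 and 5.41 in L day 7, against 6.88, 6.94, 6.73 and 6.11 in L day 0. It did not overlap between the groups, and replicate 4 was the lowest of the day 0 arrays. The difference was -1.20 ± 0.31 (adjusted p = 0.349). Mx1 measured 3.92, 4.22, 4.60 and 4.13 in L day 7, against 5.62, 5.43, 5.68 and 4.71 in L day 0 (-1.14 ± 0.31, adjusted p = 0.403). It too was without overlap, with replicate 4 again the lowest at day 0. Oasl2, an oligoadenylate synthetase-like protein, measured 4.68, 4.84, 4.97 and 4.84 in L day 7, against 5.50, 5.76, 5.73 and 5.57 in L day 0 (-0.81 ± 0.23, adjusted p = 0.585). Its groups were the tightest of the 3, and with the 8 L arrays alone its adjusted p was 0.0915. Oas1a measured 4.72, 4.46, 5.75 and 4.06 in L day 7, against 6.47, 6.71, 5.78 and 4.42 in L day 0 (-1.10 ± 0.54, adjusted p = 0.994). Its groups overlapped widely, and probes of the Oas1 genes, which are close copies of each other, may not separate them.

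Ifi27, a small interferon-induced membrane protein, differed by -0.62 ± 0.20, Gbp2, a guanylate-binding protein, by -0.63 ± 0.20 and Ifit3, which binds foreign RNA together with other Ifit proteins, by -0.61 ± 0.23. Among factors of the interferon pathway, Irf9 differed by -0.48 ± 0.23, Irf1 by -0.30 ± 0.17 and Stat2 by -0.24 ± 0.15. Of the other members, Psmb8, Oasl, Bst2, Rsad2 and Psmb9 had differences between -0.375 and -0.23. Ifit1, Trim25, Oas1k and Isg20 had differences between -0.09 and 0.17. In L day 10 the Mx2 arrays were 5.19, 5.75, 7.03 and 6.36, and the Mx1 arrays 3.69, 4.37, 5.86 and 5.13. In both genes these values spanned the level of the day 7 arrays and that of the day 0 arrays.

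The letters of the interferon-stimulated response element were searched in the 250 bases before the start in the promoter table because genes of this kind are known to carry it. The motif was GAAA, any pair of bases, then GAAA, on either strand, and promoters were those of RefSeq on GRCr8. Of the 22 measured members 18 had a promoter entry, and 9 of the 18 held the motif, beside 3.41% of all 33469 promoters. A match is a description of the sequence only. The 3 members of smallest p that held the motif and whose entry starts at the annotated gene start are printed 5′ to 3′, with the motif in capitals (matches on the reverse strand begin with TTTC).
Ifi27 (chr6:128355062-128355311, + strand): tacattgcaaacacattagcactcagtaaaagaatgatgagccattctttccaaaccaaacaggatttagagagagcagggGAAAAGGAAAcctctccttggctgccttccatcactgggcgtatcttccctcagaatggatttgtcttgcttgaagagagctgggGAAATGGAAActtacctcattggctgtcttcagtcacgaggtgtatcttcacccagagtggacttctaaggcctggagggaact
Gbp2 (chr2:234005477-234005726, + strand): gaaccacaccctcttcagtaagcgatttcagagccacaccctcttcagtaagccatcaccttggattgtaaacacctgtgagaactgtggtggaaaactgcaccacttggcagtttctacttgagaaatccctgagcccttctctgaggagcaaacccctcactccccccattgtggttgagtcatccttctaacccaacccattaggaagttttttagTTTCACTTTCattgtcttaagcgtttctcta
Ifit3 (chr1:241527076-241527325, + strand): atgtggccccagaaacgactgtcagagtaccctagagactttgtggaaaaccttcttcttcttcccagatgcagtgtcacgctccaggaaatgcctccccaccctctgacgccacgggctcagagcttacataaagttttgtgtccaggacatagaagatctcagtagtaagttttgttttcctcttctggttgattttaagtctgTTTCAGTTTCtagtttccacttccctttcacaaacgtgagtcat
Ifi27 held the motif at 169 and 84 bases before its start, Gbp2 at 31 and Ifit3 at 44. The windows of Mx1 and Slfn4 had no match, and the starts in their entries lie 93 and 85 bases inside the annotated gene. Of Mx2, Oas2, Oas1k and Ifit1 no promoter sequence was used here.

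Markers of macrophages also had a negative list median, -0.24 over 18 measured members (-0.34 without replicate 4 of L day 0). None passed the threshold, and 13 differences were negative, while 42.7% of all probe sets were above 0. The mean of these markers per array lay between 6.48 and 6.82 in L day 7 and between 6.62 and 6.99 in L day 0. Aif1, a calcium-binding protein of macrophages, differed by -0.35 ± 0.13 and Tyrobp, an adaptor of myeloid receptors, by -0.41 ± 0.16. The 5 positive members were Fcgr2b (0.27 ± 0.17), Itgam (0.125 ± 0.077), RT1-Da (0.09 ± 0.16), Cd14 (0.01 ± 0.15) and RT1-Ba (0.01 ± 0.17). In whole kidney, fewer cells of a type and less RNA per cell cannot be told apart. Whether macrophage content has a part in the interferon values was not tested. The lymphocyte list, with 15 measured members, had a median of 0.03 and the granulocyte and mast cell list, with 10, a median of 0.11 (0.07 and 0.10 without replicate 4 of L day 0).

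None of 35 chemokines and cytokines passed, 27 differences were negative, and the median was -0.15 (-0.20 without replicate 4 of L day 0). Cxcl13, the B cell attracting chemokine, measured 6.84, 5.91, 6.62 and 6.51 in L day 7, against 7.70, 7.61, 7.60 and 6.63 in L day 0 (-0.91 ± 0.35, adjusted p = 0.994). Replicate 4 of L day 0 stood about 1 log2 unit below the other carrier arrays and inside the range of day 7. Csf1, the growth factor of macrophages, differed by -0.47 ± 0.14 and Ccl2, which attracts monocytes, by -0.49 ± 0.15. For Ccl2 all day 7 arrays (5.09 to 5.38) lay below all day 0 arrays (5.58 to 6.10).

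No marker of tubular injury passed the test in L kidneys at day 7, and Havcr1 and Lcn2 overlapped between the groups. Of the 26 measured members 18 had negative differences, and the median was -0.05. That median was -0.16 without replicate 4 of L day 0 and 0.00 with array medians subtracted. Havcr1 measured 3.48, 4.23, 4.17 and 3.91 in L day 7, against 3.76, 3.82, 4.32 and 3.74 in L day 0. Its highest and its lowest day 0 arrays lay within or close to the range of day 7, with a difference of 0.04 ± 0.54. Its error comes largely from arrays of other groups: with the 8 L arrays alone the difference was 0.04 ± 0.19, with a 95% interval of -0.38 to 0.46. Lcn2 measured 5.45, 6.30, 5.96 and 5.47 in L day 7, against 5.77, 5.95, 6.14 and 5.53 in L day 0 (-0.05 ± 0.20, interval -0.47 to 0.36). Hmox1, the haem-degrading enzyme of oxidative stress, measured 5.17, 4.76, 5.13 and 4.40 in L day 7, against 5.27, 5.35, 4.74 and 4.85 in L day 0, and with the L arrays alone differed by -0.19 ± 0.20. The members of smallest p were complement C3 (-0.32 ± 0.14) and Tff3, a trefoil peptide (-0.35 ± 0.16), both lower and both with an adjusted p of 0.994. Other injury genes such as Clu (-0.14), Krt18 (0.21), Vim (0.08) and Timp1 (-0.09) had differences smaller than their standard errors.

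The angiotensin and kinin list, whose products set blood pressure and renal blood flow, had no member past the threshold among 14 measured. Ace, the angiotensin-converting enzyme, measured 6.19, 5.90, 6.22 and 5.73 in L day 7, against 6.08, 5.94, 6.27 and 5.78 in L day 0 (-0.01 ± 0.16). Agt, the angiotensin precursor, measured 8.58, 8.44, 8.59 and 8.27 in L day 7, against 8.62, 8.50, 8.30 and 8.10 in L day 0 (0.09 ± 0.14). Both genes overlapped between the groups. Agtr1a, the main angiotensin receptor of the kidney, differed by -0.33 ± 0.21, with replicate 2 of L day 7 (6.38) below the other day 7 arrays (6.97 to 7.25). Bdkrb1, a kinin receptor that appears with inflammation, measured 3.36, 3.61, 3.67 and 3.27 in L day 7, against 2.75, 2.69, 2.74 and 3.66 in L day 0. Apart from replicate 4 of L day 0, its carrier arrays lay below the treated ones, and the difference was 0.52 ± 0.17 (adjusted p = 0.753). Its probe set is among the dimmest 25%.

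Nephron segment lists had medians close to 0, and their most negative values belonged to single genes of the distal nephron. The 26 proximal tubule genes had a median of -0.04 and a range of -0.21 to 0.23, and none had an unadjusted p under 0.05. The 23 markers of the loop of Henle and of the distal convoluted segment had a median of -0.09 and the 20 collecting duct genes a median of -0.04, with none past the threshold. Without replicate 4 of L day 0 these medians were -0.08, -0.14 and -0.11. Calb1, the calcium buffer of the distal tubule, measured 9.94, 9.23, 9.53 and 9.63 in L day 7, against 10.36, 10.60, 10.30 and 9.89 in L day 0 (-0.70 ± 0.24, adjusted p = 0.858). Only replicate 4 of L day 0 reached into the day 7 range. Slc8a1, the sodium-calcium exchanger that works beside Calb1, measured 7.58, 7.32, 7.52 and 7.62 in L day 7, against 8.18, 8.37, 8.25 and 7.72 in L day 0 (-0.62 ± 0.27, adjusted p = 0.994), without overlap. Trpv5, the calcium channel of the same cells, differed by -0.35 ± 0.19. Aqp2, the water channel that vasopressin moves to the collecting duct surface, measured 9.63, 9.42, 9.70 and 9.91 in L day 7, against 10.14, 10.07, 10.24 and 9.87 in L day 0 (-0.41 ± 0.16, adjusted p = 0.994). Again replicate 4 of L day 0 was the array that overlapped.

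Matrix genes had a median of -0.16 over 18 measured, none past the threshold. It was -0.25 without replicate 4 of L day 0 and -0.10 with array medians subtracted. Grem1, an antagonist of bone morphogenetic proteins, measured 5.47, 5.72, 5.74 and 5.71 in L day 7, against 6.46, 6.63, 6.94 and 6.26 in L day 0 (-0.91 ± 0.28, adjusted p = 0.681), with no overlap. Timp3, an inhibitor of matrix proteases, differed by -0.26 ± 0.088 and Fn1, fibronectin, by -0.28 ± 0.13. Lum, lumican, stood the other way at 0.45 ± 0.21. Plvap, a protein of the fenestrated endothelium, differed by -0.40 ± 0.13 (adjusted p = 0.758). It was the lowest of 12 measured endothelial genes, of which 8 were negative and 3 positive. The median of that list was -0.05 (-0.06 without replicate 4 of L day 0). Nupr1, a chromatin protein of the stress response, measured 7.95, 7.35, 8.33 and 8.04 in L day 7, against 8.84, 8.62, 8.85 and 8.16 in L day 0 (-0.70 ± 0.21, adjusted p = 0.681). It was the lowest of 18 genes of the Atf4 and unfolded protein list, whose median was -0.04 (-0.10 without replicate 4 of L day 0).

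Fatty acid oxidation and PPAR targets were the pathway list with the largest share of positive differences, 19 of 26, with a median of 0.04 and none past the threshold. Without replicate 4 of L day 0 the sign of the list median turned, to -0.01, while the median of all probe sets was -0.07. With array medians subtracted these medians were 0.10 and 0.03. Acaa2, the last enzyme of mitochondrial beta-oxidation, measured 10.27, 10.34, 10.04 and 10.23 in L day 7, against 9.97, 9.83, 9.88 and 9.74 in L day 0 (0.36 ± 0.13, adjusted p = 0.930). All its day 7 arrays lay above its day 0 arrays. Ehhadh, an enzyme of peroxisomal beta-oxidation, differed by 0.32 ± 0.14, Acsl1, which activates fatty acids, by 0.28 ± 0.14 and Angptl4, an inhibitor of lipoprotein lipase, by 0.42 ± 0.26. Lists of sterol synthesis (median -0.01), hypoxia and glycolysis (-0.05), the respiratory chain (0.00), the cell cycle (-0.04) and the clock (-0.06) also had no member past the threshold. Without replicate 4 of L day 0 these medians were -0.13, -0.10, -0.07, -0.05 and -0.11.

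**Figure D3:**
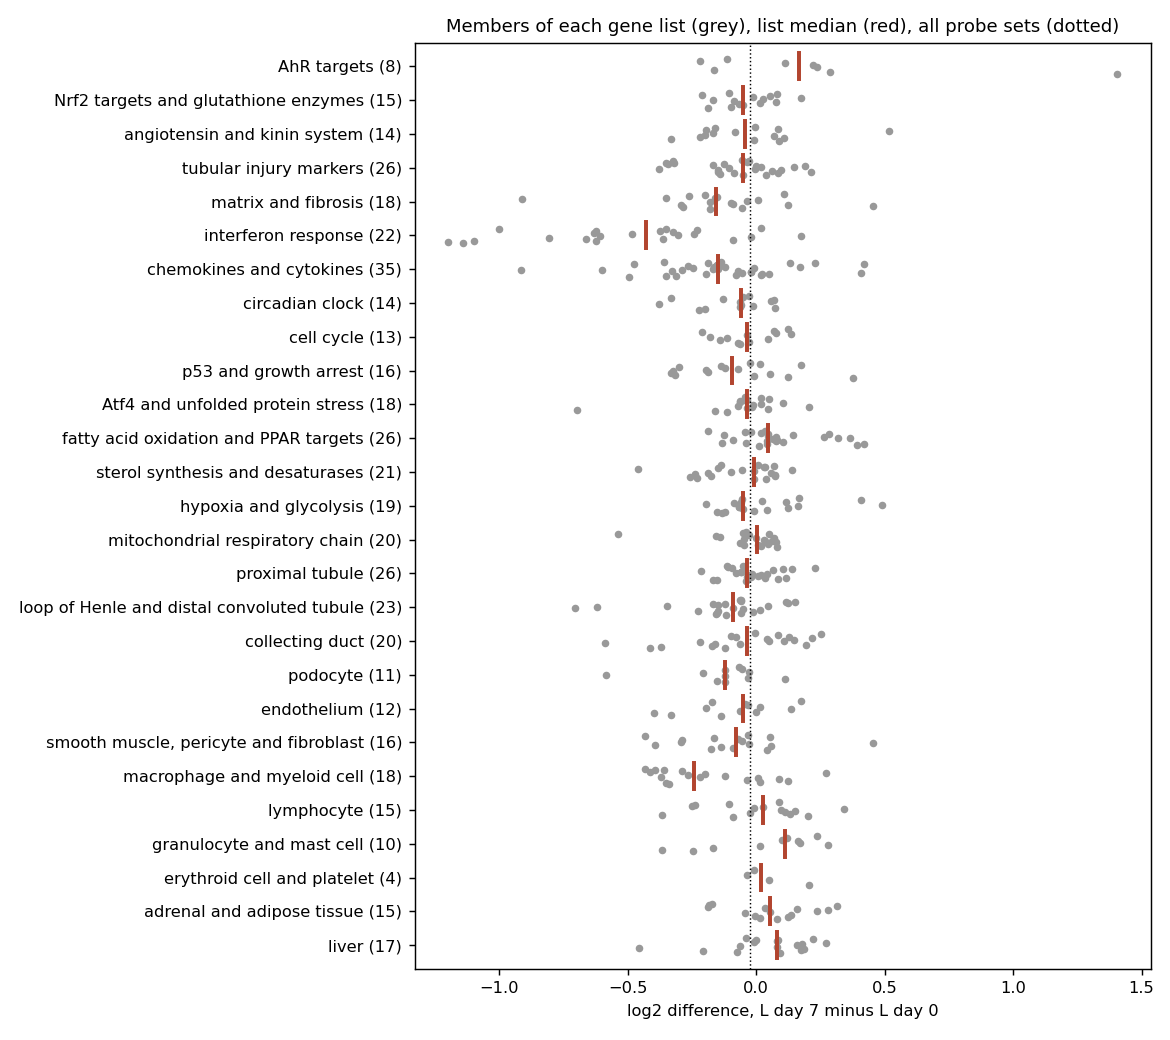
Grey points are the log2 differences (L day 7 minus L day 0) of the measured members of 27 gene lists, with the number measured in brackets, red bars are list medians and the dotted line is the median of all probe sets at -0.025. The interferon list has the lowest median, -0.43, and Cyp1a1 is the point furthest to the right.

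The size of difference that this comparison leaves room for can be read from its intervals. The median standard error over the probe sets was 0.14 and the median half-width of a 95% interval 0.29. For 8385 probe sets (95.3%) the interval lay inside -1 to 1, and for 6060 (68.9%) inside -0.5 to 0.5. The difference itself reached 1 log2 unit in 14 probe sets, 3 higher and 11 lower. Those with a gene symbol were Cyp1a1 and Vom1r82 on the higher side, and Stc1, Mx2, Mx1, Oas1a, Ifitm2 and Slfn4 on the lower side. Ifitm2 (-1.01 ± 0.45) and Slfn4 (-1.0 ± 0.33) are also interferon-induced genes, and neither passed the threshold.

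The day 7 response of L was then set against that of the other strains by testing the difference of differences, L minus the other strain. These contrasts share the L arrays. Against LF, 5 probe sets passed, 4 higher (0.0455%) and 1 lower (0.0114%), and all belonged to genes that were near 0 in L. Against F none passed in either direction (0%), with a smallest adjusted p of 0.218 by limma, and at an unadjusted p under 0.05 there were 118 higher (1.34%) and 182 lower (2.07%). Against FL none passed either, with a smallest adjusted p of 0.296, and 154 were higher (1.75%) and 143 lower (1.63%) at an unadjusted p under 0.05. Within the strains, 38 probe sets were higher and 21 lower at day 7 in F (0.432% and 0.239%), 34 and 165 in LF (0.386% and 1.88%), and 2 and 12 in FL (0.0227% and 0.136%).

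Dbp, a transcription factor that follows the circadian clock and drives genes of metabolism, measured 8.47, 8.35, 8.79 and 8.52 in L day 7, against 8.68, 8.81, 8.36 and 8.54 in L day 0. These overlapped, with a difference of -0.07 ± 0.20. In LF it fell by 1.76 ± 0.20, with arrays of 8.03 to 8.74 at day 7 and 9.82 to 10.18 at day 0, and the L minus LF difference was 1.69 ± 0.29 (adjusted p = 0.00291). At day 7 the L and LF arrays overlapped, while the LF carrier arrays stood above the L carrier arrays. Within the 4 replicate numbers the L minus LF difference lay between 1.17 and 2.57.

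Per3, a period gene of the clock, measured 6.51, 6.71, 7.03 and 6.43 in L day 7, against 6.79, 6.83, 6.68 and 6.63 in L day 0 (-0.06 ± 0.14). In LF it lay between 6.39 and 6.67 at day 7 and between 7.27 and 7.68 at day 0, and L minus LF was 1.02 ± 0.19 (adjusted p = 0.0143). Tef, a relative of Dbp, measured 7.94, 8.06, 8.28 and 7.83 in L day 7, against 7.94, 8.22, 7.91 and 7.81 in L day 0 (0.06 ± 0.15). In LF it lay between 7.27 and 8.07 at day 7 and between 8.54 and 8.80 at day 0, and L minus LF was 0.98 ± 0.21 (adjusted p = 0.0454). As with Dbp, it was the carrier group of LF that stood apart from the L arrays. Bmal1, the core activator of the clock, ran the other way, with L minus LF at -1.88 ± 0.42 (adjusted p = 0.0607). Its adjusted p was 0.000604 with the replicate block and 0.129 with only the L and LF arrays. Over the 16 alternatives it reached 0.186, and the gene passed in 7. Of 14 measured clock genes 0 passed the threshold at day 7 in L, while in F 1 was lower and 2 higher, in LF 7 were lower and 2 higher, and in FL 3 were lower. The shares of all probe sets called lower and higher were 0.239% and 0.432% in F, 1.88% and 0.386% in LF, and 0.136% and 0.0227% in FL. The hour at which kidneys were taken is not given in the sources used here.

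Ndrg1, a gene induced by hypoxia and cell stress, measured 12.33, 12.01, 12.03 and 12.35 in L day 7, against 12.31, 12.16, 12.21 and 11.95 in L day 0 (0.02 ± 0.093). In LF it rose by 1.01 ± 0.093, with arrays of 12.17 to 12.53 at day 7 and 11.23 to 11.56 at day 0, and L minus LF was -0.98 ± 0.13 (adjusted p = 4.02e-05). Here too the LF carrier arrays lay outside the range of all L arrays. Ccnd1, cyclin D1 of the cell cycle, measured 9.59, 9.28, 9.23 and 9.22 in L day 7, against 9.62, 9.64, 9.34 and 9.29 in L day 0 (-0.14 ± 0.18). In LF it fell by 1.40 ± 0.18, with arrays of 8.31 to 9.14 at day 7 and 9.92 to 10.15 at day 0, and L minus LF was 1.25 ± 0.25 (adjusted p = 0.0280). For Ccnd1 both the LF day 7 and the LF day 0 arrays lay outside the range of the L day 7 and day 0 arrays. Without replicate 3 of L day 7, 2 of the 5 probe sets passed.

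Havcr1 was far apart between L and F at day 7. It lay between 3.48 and 4.23 in L day 7 and between 3.74 and 4.32 in L day 0, and in F between 6.14 and 7.61 at day 7 and between 3.63 and 4.00 at day 0. The L minus F difference of -3.15 ± 0.77 had an adjusted p of 0.218 in the fit of all arrays and 0.00542 with the arrays of L and F alone, where the standard error was 0.39. Against LF it was -2.92 ± 0.77 (adjusted p = 0.277), and 0.00580 with the arrays of L and LF alone. Lcn2 differed between L and LF by -1.29 ± 0.29 (adjusted p = 0.0648). Of the 22 interferon members 0 were lower past the threshold at day 7 in L, 1 in F, 13 in LF and 0 in FL. Over all probe sets 0.0114% were lower in L, 0.239% in F, 1.88% in LF and 0.136% in FL. The list medians were -0.43 in L, -0.28 in F, -0.73 in LF and -0.05 in FL. No interferon member passed the test of L against another strain: for Mx2 the L minus LF difference was 0.84 ± 0.44 (adjusted p = 0.959).

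**Figure D4:**
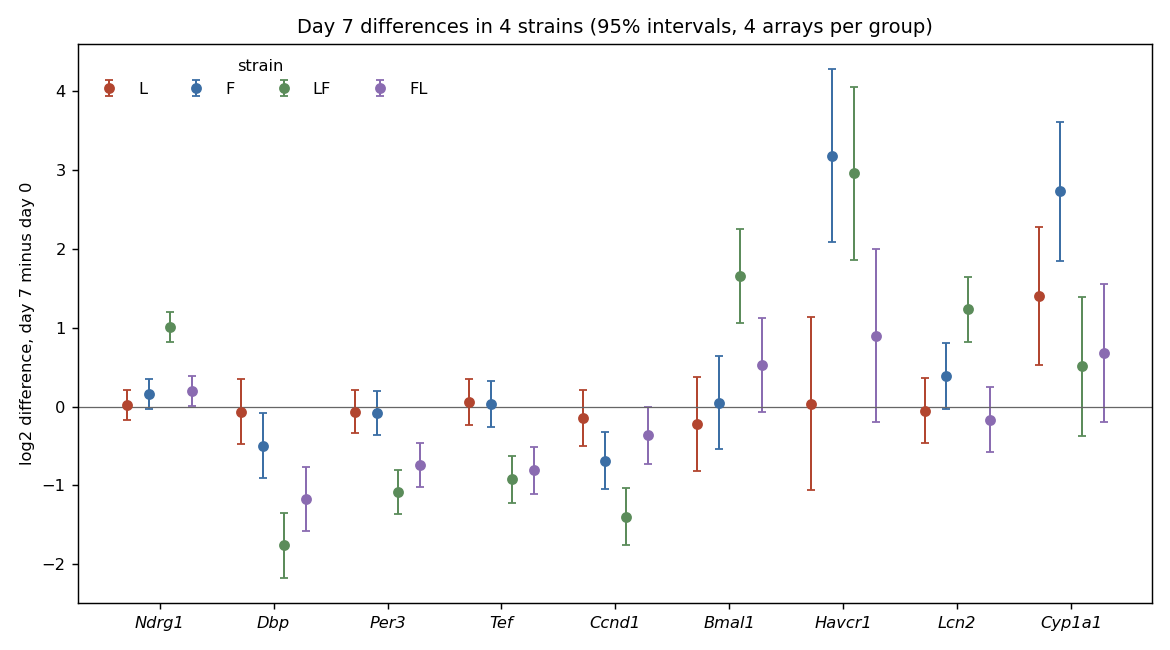
Points are log2 differences of day 7 minus day 0 for 9 genes in L, F, LF and FL, with 95% intervals from the fit of all 48 arrays and 4 arrays in each group. Ndrg1, Dbp, Per3, Tef and Ccnd1 lie near 0 in L and away from 0 in LF, and Havcr1 lies at 0.04 in L and at 3.18 in F.

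L day 10 minus L day 7 gave no probe set past the threshold (0%), with a smallest adjusted p of 0.812 by limma and, at an unadjusted p under 0.05, 272 higher (3.09%) and 158 lower (1.8%). Havcr1 measured 6.63, 4.56, 7.04 and 4.09 in L day 10, against 3.48, 4.23, 4.17 and 3.91 in L day 7 (1.63 ± 0.54). Replicates 1 and 3 of day 10 stood well above every day 7 array, and the other two lay in or near the day 7 range. Hmox1 measured 7.41, 8.64, 5.11 and 5.10 in L day 10, against 4.40 to 5.17 in L day 7, and Lcn2 measured 6.71, 5.89, 6.86 and 5.62 in L day 10, against 5.45 to 6.30 in L day 7. The high arrays of Lcn2 were those of Havcr1, and those of Hmox1 were replicates 1 and 2. Against day 0, which shares its carrier arrays with the day 7 comparison, L day 10 had 0 probe sets higher and 1 lower (0.0114%) past the threshold, again 7105149, and at an unadjusted p under 0.05 it had 244 higher (2.77%) and 134 lower (1.52%).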

How the data were processed

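Kidney RNA was measured on Affymetrix arrays with whole-transcript labelling. Trizol extracts were cleaned on columns after a DNase step and depleted of ribosomal RNA, per the labels' protocols. The values deposited by the authors are log2 signals, 1 per probe set, and RMA and limma are listed in the submitters' processing notes with no version or role. The probe annotation used for the summary is not given in the sources used here. Every column was mapped to a sample by its label (0 not used), with 0 missing values. Of 8797 probe sets, 7603 carried 1 gene symbol, 409 several and 785 none. Names were updated through Entrez identifiers to RefSeq for 7584, and for 14 symbols with several probe sets the brightest was used.

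Differences were computed in R 4.3.3 with limma 3.58.1 (lmFit and eBayes, 1 mean per group, 48 arrays, with 36 degrees of freedom and 3.69 more from the prior) and adjusted over all probe sets by Benjamini-Hochberg. The scripts were tested on simulated data. Named genes were those past the threshold, the 10 of smallest p in each direction where fewer passed, up to 4 of smallest p from each of 27 gene lists (466 of 724 genes measured), up to 5 in each direction from each contrast between strains or days, and 22 further chosen genes that were measured. The members of the comparison, the lists and the rule were chosen with earlier results of these data known. Genes quoted outside the rule, list members and those past 1 log2 unit, were chosen after their values were seen. The printed promoters were also chosen after values were seen. Lists are described by counts and medians, without a test.

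Alternatives were a replicate block, only the arrays compared, array weights, a second quantile normalization, subtracted array medians, array spread as a covariate, the dimmest 25% of probe sets left out, robust trended eBayes and each L array left out. Same-numbered L day 7 and L day 0 arrays had correlations of deviations of 0.071, -0.014, 0.134 and 0.293, against a mean of -0.041 for different numbers. Array names carry 4 prefixes, each with 12 arrays of 1 replicate number. The number of arrays limits the precision.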

Additional observations from a re-analysis of the deposited data

Results flagged for a closer look

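In 16 of 272 groups of 4 arrays tested (5.88%), 1 array stood apart from the other three by Dixon's criterion, and chance gives about 1 in 20. In L day 7, replicate 1 stood apart for Grem1 (5.47, others 5.71 to 5.74), Or51q1 (3.37, others 2.61 to 2.68), Plvap (8.78, others 8.48 to 8.52) and Ccnd1 (9.59, others 9.22 to 9.28). Replicate 4 did so for Tpsab1 (4.49, others 3.54 to 3.61) and Cox7b (4.63, others 6.13 to 6.40), replicate 3 for Tp53inp1 (7.50, others 7.16 to 7.21) and replicate 2 for Nqo1 (4.92, others 5.12 to 5.15).

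In L day 0, replicate 4 stood apart for Or5ac19 (2.35, others 1.78 to 1.84), Bdkrb1 (3.66, others 2.69 to 2.75), Cxcl13 (6.63, others 7.60 to 7.70), Rgs5 (7.73, others 8.22 to 8.30) and Slc22a8 (10.71, others 10.96 to 11.01). Replicate 3 did so for Ccl2 (6.10, others 5.58 to 5.64), Or51q1 (2.67, others 1.69 to 1.78) and Havcr1 (4.32, others 3.74 to 3.82).

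By the limma test of the difference itself, L minus LF at day 7 passed the threshold for Dbp (1.69), Ccnd1 (1.25), Per3 (1.02), Tef (0.98) and Ndrg1 (-0.98). With only the L and LF arrays, Dbp passed and the others named here did not.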

How the results depend on the processing

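Probe set 7105149 passed the threshold under each of the 16 alternatives that were run, with differences between -1.73 and -1.56. The count of probe sets lower in L day 7 was 1 as reported, 14 with array weights, and 3 with a second quantile normalization, with subtracted array medians and with array spread as a covariate. It ranged from 1 to 3 when single L arrays were left out, with 3 without replicate 4 of L day 0, whose array weight was 0.377. Slc14a2 and Vegfd were the added genes there. The count higher was 0, except 2 with array weights (Bdkrb1 and Kcns2). With the replicate block, 2 probe sets were lower in L day 7 and 12 differed between L and LF (5 without it), while 1 differed between L and FL. The replicate numbers share array name prefixes, but the labels do not say that they pair the rats. Of the 4 same-number correlations between L day 7 and L day 0, 2 were under 0.1. Over all groups the mean correlation was 0.094 for the same number and -0.031 for different numbers.

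Counts for L against LF were 12 with the second normalization, 11 with medians subtracted, 13 with the spread covariate and 2 with only the arrays compared, and ranged from 2 to 6 without single L arrays (2 without replicate 3 of L day 7). Dbp passed in all 16 alternatives, Ndrg1 in 15, Per3 in 14, Ccnd1 in 11 and Tef in 8. Bmal1, which did not pass in the main fit, passed in 7. For L against FL the counts were 4, 3, 4 and 1 under those settings in turn, and for L against F 3 with only the arrays compared (Havcr1, Clu and Fgb). The cause was not tested. L day 10 minus L day 7 gave 0 throughout. For L day 7 minus L day 0, 136 named features were followed over their alternatives. Of 2159 values 2140 kept their side of the threshold, 19 passed in addition, 0 were lost, and 0 turned over a called value. Only 1 probe set was past the threshold in the main fit of that comparison, so few values could be lost. Among the 2140 a sign turned in 38, in 12 genes, with neither value past the threshold. The deposited values give no signal over background, so the dimmest probe sets carry no detection limit here.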
